A study of Homo sapiens with 43 samples.

Results

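Dexamethasone at 1 µM was compared with dexamethasone at 0.01 µM after 3 days in HMC3 cells, each dose against ethanol vehicle flasks of its own. The net dose effect of a gene was the log2 change at 1 µM against its vehicle minus the log2 change at 0.01 µM against its vehicle. The 4 groups were taken from the treatment labels and held 3 libraries each, so 12 of the 43 libraries of the study entered the comparison. HMC3 (ATCC CRL-3304) is an immortalised human line that is distributed as microglia. All flasks were seeded from this line alone, treated from the day after seeding, and harvested one by one on day 3. The groups were dexamethasone 1 µM (replicates 2, 3 and 4), its vehicle (1, 2 and 4), dexamethasone 0.01 µM (1, 2 and 3) and its vehicle (1, 2 and 3). The vehicle was ethanol, and the ethanol content of each vehicle is not given in the sources used here. Both doses were of the same molecule, so no difference of structure entered the comparison. Beside them, hydrocortisone 10 µM with its own vehicle (3 and 3 libraries) and the dexamethasone flasks of day 6, after 3 days without hormone (3 and 3 libraries), were used as libraries outside the comparison. The design asked whether the dose of a stress hormone affects gene expression. Beyond separate harvesting, nothing says how independent the flasks were, and a p-value then covers only the spread among these flasks, which may be technical.

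Dexamethasone is a synthetic glucocorticoid that binds the glucocorticoid receptor, a transcription factor held in the cytoplasm by chaperones until it meets its ligand. The bound receptor enters the nucleus, where it raises transcription at genes with glucocorticoid response elements and lowers transcription at many others, often through factors such as AP-1 and NF-kB. In the brain, glucocorticoids restrain inflammatory gene expression in microglia, and genes differ in how much hormone they need for their full response.

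Total counts in the 12 libraries ran from 10883204 to 21093120. Ribosomal RNA genes took 10.6 to 94.86% of them, above 75% in 3 libraries, and the other genes received 1083395 to 13593252 counts. The lowest of these belonged to dexamethasone 0.01 µM replicate 3, which also stood apart on the second principal component (-39.9, the other 11 libraries between -10.0 and 14.3), so values without it are given beside the main results that it touches. Of 24 microglia and macrophage markers 8 were in the table and 3 had a median above 1 CPM (read counts scaled to a common total, here of the non-ribosomal counts). CSF1R and TREM2 were among those below 1 CPM, with medians of 0.215 and 0.313 CPM. They reached at most 0.529 and 1.40 CPM in any of the 12 libraries. Of 18 fibroblast and pericyte markers 16 were in the table and 12 had a median above 1 CPM. COL1A1, VIM and TAGLN were the highest, with medians of 1971, 1546 and 844 CPM. DCN, FAP, ACTA2 and S100A4 were below 1 CPM, with medians of 0.645, 0.441, 0.775 and 0.781 CPM. The 16 summed to 5369 to 5780 CPM at 1 µM, 4765 to 4998 CPM in its vehicle, 5116 to 6352 CPM at 0.01 µM and 4854 to 5405 CPM in its vehicle. Whether such differences in markers had a part in the results below was not tested, and in bulk RNA fewer cells of a type and less RNA per cell cannot be told apart.

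Few genes separated the doses. With edgeR's quasi-likelihood test, and a Benjamini-Hochberg adjusted p below 0.05 as the threshold, the net dose effect was called for 8 of 16816 genes tested, which is 0.0476% of them. NID2, LPIN3 and ALCAM were higher at 1 µM (3 genes, 0.0178%), and HAS2, PAPPA, ST6GAL2, MAP3K7CL and THBS2 were lower (5 genes, 0.0297%). HAS2, THBS2 and NID2 encode an enzyme or proteins of the extracellular matrix, ALCAM a cell adhesion molecule and PAPPA a secreted protease. Their sizes ran from 0.52 (ALCAM) to 1.29 (NID2) on the log2 scale. An unadjusted p under 0.05 was reached by 1088 genes. The 95% interval of a net dose effect had a median half-width of 0.35 on the log2 scale over 11766 genes whose log2 CPM averaged 1 or more. Smaller differences between the doses were thus mostly not detectable even before adjustment. The adjusted threshold asked for more, and no size below 0.52 was called. Each dose on its own changed far more genes against its vehicle, 3804 at 1 µM (22.6%; 1739 higher and 2065 lower) and 2353 at 0.01 µM (14%; 1034 higher and 1319 lower), or 1859 without the 0.01 µM replicate 3.

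Levels below are CPM of the TMM-scaled library unless said otherwise. NID2 encodes a nidogen, a glycoprotein that links laminin and collagen networks in basement membranes (chr14:52004803-52069228, minus strand; positions of genes are those of GENCODE v29 on GRCh38). Its levels were 70.9, 65.8 and 76.5 CPM at 1 µM and 28.1, 28.6 and 24.5 CPM at 0.01 µM. The vehicles held 2.77, 3.34 and 2.52 CPM beside the 1 µM dose and 2.36, 3.15 and 2.55 CPM beside the 0.01 µM dose. Every hormone library lay far above every vehicle library, and every 1 µM library lay above every 0.01 µM library. The doses did not overlap in any of the 8 genes, nor in 1985 of all 16816 genes tested. The 8 were called by a contrast that holds the difference of the doses, so their separation was largely set by that choice. NID2 rose by 4.62 (SE 0.16) at 1 µM and by 3.33 (SE 0.15) at 0.01 µM on the log2 scale. The net dose effect was 1.29 (95% interval 0.90 to 1.69, 2.45-fold; edgeR adjusted p = 0.000473), and it was past the threshold in 21 of 21 alternative settings. Without the 0.01 µM replicate 3 the net effect of NID2 was 1.23 (adjusted p = 0.0024).

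HAS2 encodes a plasma membrane enzyme that synthesises hyaluronan, the large polysaccharide of pericellular matrix (chromosome 8, minus strand). It was at 1.69, 2.38 and 2.19 CPM at 1 µM and at 4.78, 4.11 and 4.91 CPM at 0.01 µM. Its vehicles held 28.9, 22.2 and 20.4 CPM and 23.0, 26.0 and 16.8 CPM. Both doses therefore sat below all vehicle libraries, and the 1 µM libraries below the 0.01 µM libraries, although the last of the 0.01 µM values rested on 10 counts. HAS2 fell by 3.51 (SE 0.14) at 1 µM and by 2.26 (SE 0.14) at 0.01 µM on the log2 scale. Its net dose effect was -1.25 (-1.63 to -0.87, 2.38-fold lower; edgeR adjusted p = 0.000473). It was past the threshold in 17 of 21 alternatives, and without the 0.01 µM replicate 3 it was -1.21 (adjusted p = 0.0024).

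THBS2, a thrombospondin of the matrix that modulates cell contacts (chr6:169215780-169254044, minus strand), was at 65.0, 65.4 and 77.5 CPM at 1 µM and at 95.6, 98.7 and 109 CPM at 0.01 µM. All 6 vehicle libraries were between 167.0 and 180.4 CPM. The groups did not overlap, and the order was vehicle, 0.01 µM, 1 µM from high to low. Set against each other, the doses differed net of vehicle by -0.52 (-0.73 to -0.30; edgeR adjusted p = 0.0352). THBS2 kept its call in 9 of 21 alternatives, and without the 0.01 µM replicate 3 it was -0.46 (adjusted p = 0.0597).

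PAPPA encodes a secreted metalloprotease that cleaves insulin-like growth factor binding proteins and so frees the growth factor (chr9:116153804-116402322, plus strand). PAPPA was at 11.4, 9.11 and 10.2 CPM at 1 µM, at 21.3, 21.5 and 16.2 CPM at 0.01 µM and between 14.9 and 22.04 CPM in the 6 vehicle libraries. It was low at 1 µM only among the 4 groups, while the 0.01 µM libraries lay within the range of the vehicles. The change against vehicle was -0.91 (SE 0.13; edgeR adjusted p = 4.84e-07) at 1 µM and 0.04 (SE 0.13; -0.22 to 0.30; edgeR adjusted p = 0.904) at 0.01 µM. A test of that difference, the net dose effect, was -0.95 (-1.32 to -0.58; edgeR adjusted p = 0.0189). PAPPA kept its call in 14 of 21 alternatives, and without the 0.01 µM replicate 3 it was -1.07 (adjusted p = 0.0028). PAPPA was the 1 gene of the 8 not past the threshold at 0.01 µM.

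ST6GAL2 encodes a sialyltransferase of the Golgi that caps glycan chains (chr2:106801600-106887108, minus strand). It was at 6.05, 7.09 and 7.78 CPM at 1 µM, at 12.1, 11.7 and 13.7 CPM at 0.01 µM and between 29.4 and 36.5 CPM in the vehicles. The 3 levels were again separate. ST6GAL2 had a net effect of -0.79 (-1.12 to -0.47; edgeR adjusted p = 0.0352), a call that held in 7 of 21 alternatives and not without the 0.01 µM replicate 3 (-0.72, adjusted p = 0.0521). MAP3K7CL, which resembles the C-terminal part of the kinase encoded by MAP3K7 (chr21:29077471-29175889, plus strand), was at 34.8, 32.9 and 31.0 CPM at 1 µM and at 46.8, 45.2 and 44.6 CPM at 0.01 µM. Its 6 vehicle libraries held 88.9 to 99.0 CPM, so the doses and the vehicles were 3 tight and separate levels. The net dose effect of MAP3K7CL was -0.56 (-0.76 to -0.36; edgeR adjusted p = 0.00419), past the threshold in 19 of 21 alternatives and -0.57 (adjusted p = 0.0028) without the 0.01 µM replicate 3.

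ALCAM encodes an adhesion molecule of the immunoglobulin superfamily through which cells bind each other (chr3:105366909-105576900, plus strand). ALCAM was at 607, 588 and 570 CPM at 1 µM, at 465, 448 and 357 CPM at 0.01 µM and between 291.5 and 333 CPM in the vehicles. The low value of 357 CPM came from the 0.01 µM replicate 3. ALCAM had a net effect of 0.52 (0.32 to 0.71; edgeR adjusted p = 0.0109), in 17 of 21 alternatives past the threshold, and 0.41 without that library (adjusted p = 0.0372).

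LPIN3, a lipin that dephosphorylates phosphatidate in lipid synthesis (chr20:41340920-41360582, plus strand), differed from the other 7 in what made up its net effect. At 1 µM it was at 24.6, 25.2 and 27.2 CPM and at 0.01 µM at 20.3, 19.7 and 19.6 CPM. Its vehicles were at 8.87, 8.55 and 10.9 CPM beside the 1 µM dose and at 14.3, 11.2 and 12.99 CPM beside the 0.01 µM dose, so the vehicle groups did not overlap either. The hormone libraries alone differed by 0.37 (edgeR adjusted p = 0.20) and the vehicle libraries by -0.45 (unadjusted p = 0.0005, adjusted p = 0.998). Net of vehicle, LPIN3 differed by 0.82 (0.48 to 1.15; edgeR adjusted p = 0.0352), kept in 8 of 21 alternatives, and 0.81 (adjusted p = 0.046) without the 0.01 µM replicate 3.

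**Figure D1:**
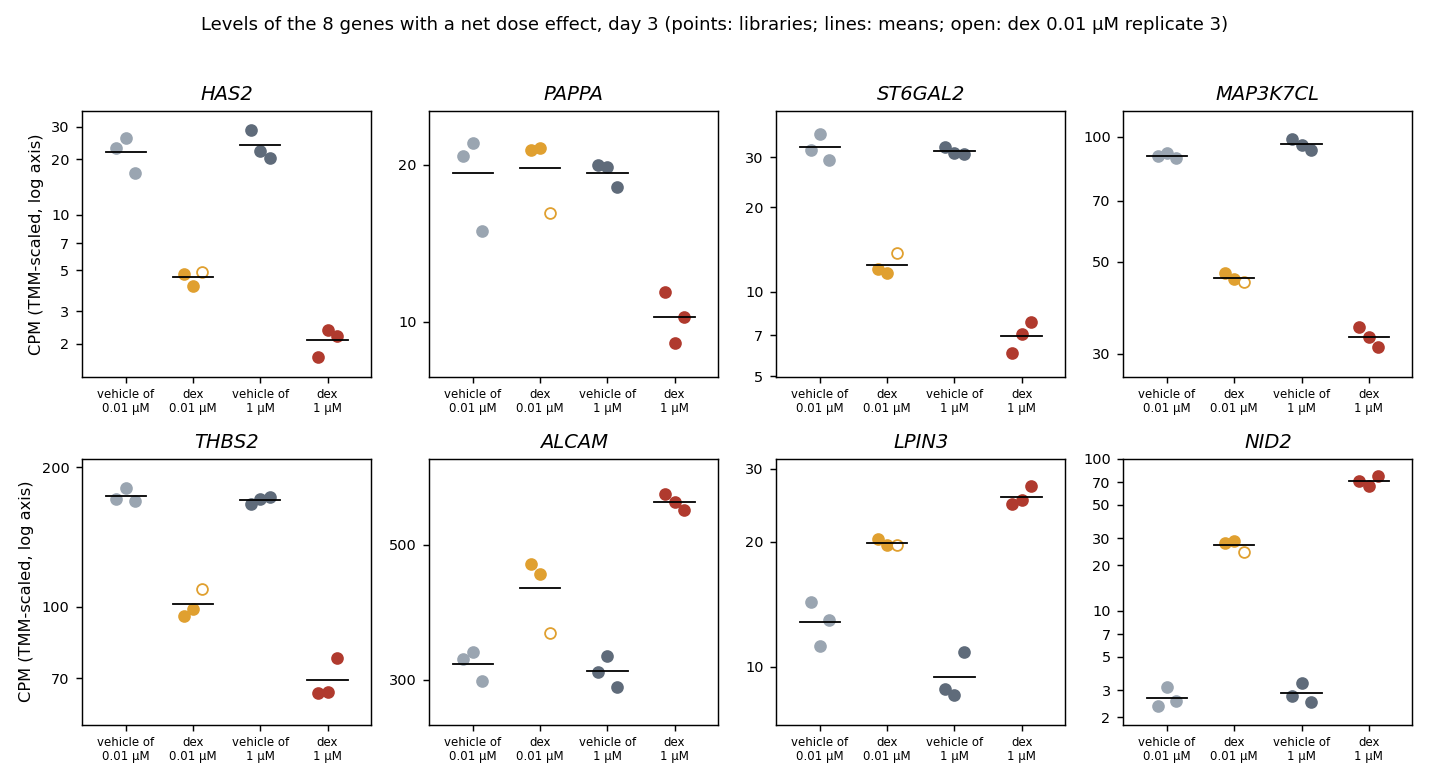
CPM of the TMM-scaled library (log axis, a range of its own in each panel) of the 8 genes with a net dose effect, in the 12 libraries of day 3. Points are libraries, lines are group means, and the open point is dexamethasone 0.01 µM replicate 3. In each panel the 1 µM libraries lie to 1 side of the 0.01 µM libraries, and PAPPA at 0.01 µM lies within the vehicles. The genes were called by a contrast that holds this difference, and the doses did not overlap in 1985 of all 16816 genes tested.

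The net effect holds a hormone term (1 µM minus 0.01 µM libraries) and a vehicle term, and the vehicle term was small for 7 of the 8 genes. The hormone term was the larger in those 7, and LPIN3 was the exception. The vehicle groups of the doses were not told apart by any gene in edgeR's test (0 of 16816, 0%) or in DESeq2 (0), with 611 genes at an unadjusted p under 0.05 and a smallest edgeR adjusted p of 0.67. Without the vehicle term, the hormone libraries alone differed in 65 genes (edgeR, 0.387% of those tested), 19 higher (0.113%) and 46 lower (0.274%) at 1 µM. They held 7 of the 8 genes of the net effect, again without LPIN3. The hormone term exceeded the vehicle term in all 65, and in 9694 of all 16816 genes tested. The 65 genes were called by the hormone term, so its larger size in them was largely set by that choice. The net effect carries the error of 4 groups and the hormone term that of 2 groups, and the median half-widths of their 95% intervals were 0.35 and 0.25. Leaving out 1 library at a time gave 4 to 18 genes for the net effect, 18 of them without the 0.01 µM replicate 3, and 18 to 81 for the hormone term, 18 of them without the 1 µM replicate 3.

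**Figure D2:**
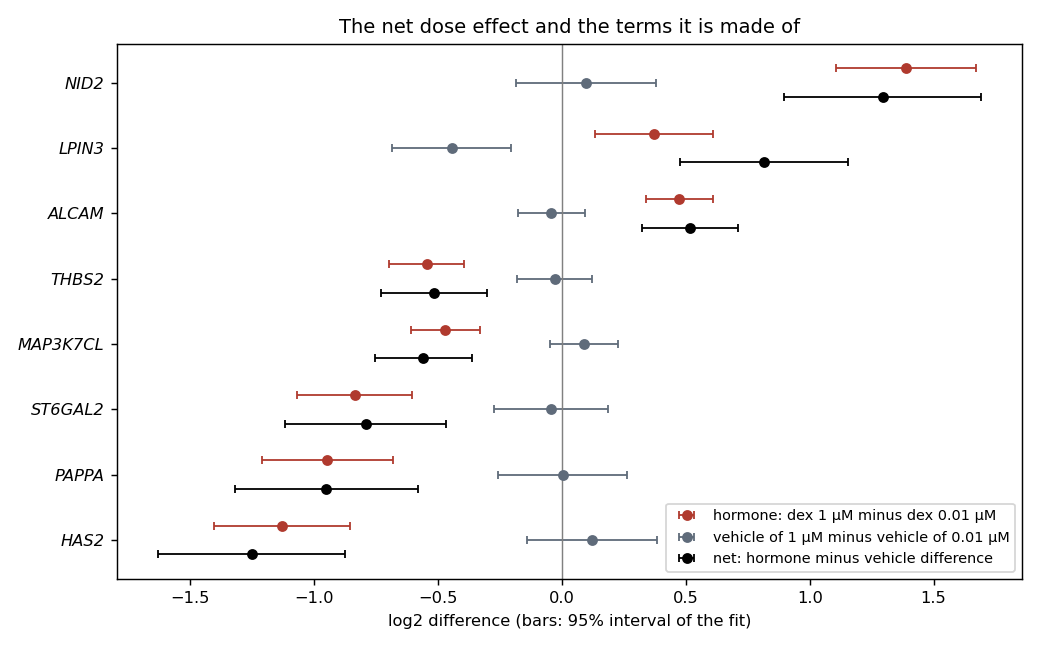
The hormone term, the vehicle term and the net dose effect of the 8 genes as log2 differences, with the 95% interval of the fit as bars. The vehicle term lies near 0 for 7 genes and is -0.45 for LPIN3.

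The promoter windows of 2 of the genes show the sequence at the starts of a gene that rose and a gene that fell with dose. RefSeq windows (250 bases before to 50 bases after a start, GRCh38.p14) were found for 5 of the 8 genes, 8 windows in all. They were searched on both strands for ACANNNTGT, the core of the palindrome that the receptor binds as a dimer. This core reads the same on either strand. It occurred in 1 of the 8 windows, at ST6GAL2, and in 5.37% of 35116 windows of this length. The match lies in 1 of the 4 windows of ST6GAL2, which has several annotated starts, and begins at position -198 from the start of that window's transcript (chr2:106886820-106887119, minus strand) and is printed in capitals. NID2, with the largest rise, had no match in its window (chr14:52069010-52069309, minus strand), which says only that these letters are not in it. A match of letters is not a binding site.
ST6GAL2: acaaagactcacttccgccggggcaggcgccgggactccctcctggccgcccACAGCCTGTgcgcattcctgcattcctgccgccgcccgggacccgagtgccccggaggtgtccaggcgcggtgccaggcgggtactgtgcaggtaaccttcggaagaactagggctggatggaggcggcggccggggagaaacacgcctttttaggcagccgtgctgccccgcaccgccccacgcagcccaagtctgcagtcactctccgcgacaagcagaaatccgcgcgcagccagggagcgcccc
NID2: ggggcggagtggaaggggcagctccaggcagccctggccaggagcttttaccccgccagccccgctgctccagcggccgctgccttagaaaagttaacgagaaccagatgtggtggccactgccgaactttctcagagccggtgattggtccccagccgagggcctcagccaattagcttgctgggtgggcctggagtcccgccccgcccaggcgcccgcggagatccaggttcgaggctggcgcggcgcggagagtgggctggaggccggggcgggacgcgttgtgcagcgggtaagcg

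Beside the 7 shared genes, the hormone term brought in genes whose net effect did not pass the threshold. The largest of them were named only if the 1 µM and 0.01 µM libraries did not overlap, so their separation was set by that rule. It held for 63 of the 65 genes and for 1985 of all 16816 genes tested. Among those lower at 1 µM were IGFBP5, a binding protein of insulin-like growth factors that PAPPA cleaves, and INHBA, the subunit of activin A. IGFBP5 was at 1.60, 1.88 and 1.75 CPM at 1 µM, at 3.38, 2.24 and 4.42 CPM at 0.01 µM and between 15.6 and 20.6 CPM in the vehicles. All its hormone libraries lay below all its vehicle libraries, and its hormone term was -0.90 (SE 0.19; edgeR adjusted p = 0.0238) beside a net effect of -0.70 (adjusted p = 0.627). Without the 0.01 µM replicate 3 the hormone term of IGFBP5 was -0.68 (adjusted p = 0.167). INHBA was at 11.1, 8.70 and 9.76 CPM at 1 µM, at 15.2, 13.2 and 13.2 CPM at 0.01 µM and between 28.8 and 33.9 CPM in the vehicles. The hormone term of INHBA was -0.49 (SE 0.10; edgeR adjusted p = 0.0163), and -0.52 (adjusted p = 0.018) without that library.

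INSYN2B, a gene of the inhibitory synaptic factor family, followed the same order, with 5.43, 4.76 and 6.36 CPM at 1 µM, 10.7, 9.69 and 7.85 CPM at 0.01 µM and 18.4 to 27.2 CPM in the vehicles (hormone term -0.78, edgeR adjusted p = 0.00236; -0.88 with adjusted p = 0.000563 without the 0.01 µM replicate 3). RASGRP1, an exchange factor that activates Ras, was at 5.34, 5.90 and 6.58 CPM at 1 µM, below all vehicle libraries (7.86 to 12.5 CPM). Its 0.01 µM libraries held 13.1, 11.1 and 7.36 CPM, the first above, the last below and 1 within the range of the vehicles. Its hormone term was -0.83 (SE 0.16; edgeR adjusted p = 0.00416). The net effect of RASGRP1 was -0.82 (adjusted p = 0.248) and passed the threshold without the 0.01 µM replicate 3 (-1.01, adjusted p = 0.0304). N6AMT1, a methyltransferase, had hormone libraries at 3.29, 3.29 and 3.84 CPM and at 5.71, 4.79 and 9.32 CPM, and vehicles between 4.05 and 6.10 CPM. Against vehicle it was called at neither dose (-0.46 with edgeR adjusted p = 0.0629 at 1 µM, 0.35 with adjusted p = 0.218 at 0.01 µM). Its hormone term of -0.90 (edgeR adjusted p = 0.00938) was -0.60 (adjusted p = 0.162) without the library at 9.32 CPM. HIF1A-AS3 had a term of -0.79 (edgeR adjusted p = 0.0272; -0.95 with adjusted p = 0.00502 without that library); it is an antisense gene, and since how strand was handled in counting is not stated, its reads cannot be told apart from those of its partner.

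Among the genes higher at 1 µM, CRYAB, a small heat shock protein, was at 19.4, 17.4 and 16.2 CPM at 1 µM, at 8.33, 7.29 and 14.2 CPM at 0.01 µM and between 4.09 and 4.89 CPM in the vehicles. The 14.2 CPM was the 0.01 µM replicate 3. The hormone term of CRYAB was 0.85 (SE 0.21; edgeR adjusted p = 0.0471), and 1.18 (adjusted p = 0.00142) without that library. ABCA8, a lipid transporter, rose from 11.5 to 12.8 CPM in the vehicles to 85.3, 85.6 and 63.8 CPM at 0.01 µM and 121, 118 and 114 CPM at 1 µM. Most of its response was thus present at the low dose, 2.68 on the log2 scale against 3.27, and its hormone term of 0.59 (edgeR adjusted p = 0.00652) was 0.46 (adjusted p = 0.0848) without the 0.01 µM replicate 3.

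EFEMP1, a fibulin of elastic matrix, was at 27.6, 26.6 and 28.9 CPM at 1 µM and 18.9, 19.8 and 13.2 CPM at 0.01 µM, with 8.44 to 11.1 CPM in the vehicles (hormone term 0.67, edgeR adjusted p = 0.00236; 0.52 with adjusted p = 0.0339 without the 0.01 µM replicate 3). PTK2B, a tyrosine kinase of adhesion signalling, was at 10.4, 8.83 and 11.7 CPM and at 5.77, 5.88 and 6.38 CPM (term 0.78, edgeR adjusted p = 0.0457; 0.82 with adjusted p = 0.0682 without that library). In both, all vehicle libraries lay below the 0.01 µM libraries, while the separation of the doses was required for naming. HMOX1, which degrades heme, and THAP7, a transcriptional repressor, had terms of 0.77 (edgeR adjusted p = 0.0457) and 0.55 (adjusted p = 0.0238), and neither kept its call without the 0.01 µM replicate 3 (0.70 with adjusted p = 0.151, and 0.38 with adjusted p = 0.206). Of 21 alternatives, the hormone term was past the threshold in 19 for EFEMP1, 7 for CRYAB, 6 for PTK2B, 9 for HMOX1 and 11 for IGFBP5.

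A few genes of the p53 response were higher at 1 µM than at 0.01 µM. Of 25 p53 targets tested, 3 were called in the hormone term, all higher at 1 µM (0.113% of all genes tested were called in that direction), and 0 in the net effect (0.0476%). The median net effect of the 25 was 0.34, beside -0.01 over all genes tested, and 0.27 without the 0.01 µM replicate 3. CDKN1A, the cyclin-dependent kinase inhibitor p21, was at 110, 115 and 101 CPM at 1 µM and at 73.0, 74.6 and 86.3 CPM at 0.01 µM, with 45.6 to 59.7 CPM in the vehicles (hormone term 0.48, SE 0.11; edgeR adjusted p = 0.0222). MDM2, the ubiquitin ligase that degrades p53, was at 163, 162 and 160 CPM, at 120, 117 and 132 CPM and at 77.6 to 89.8 CPM (0.40, SE 0.09; edgeR adjusted p = 0.0240). TP53INP1, a p53-induced protein of stress and autophagy, was at 15.8, 15.2 and 16.7 CPM, at 10.4, 10.9 and 11.8 CPM and at 7.01 to 8.76 CPM (0.53, SE 0.12; edgeR adjusted p = 0.0256). In all of them the 1 µM, 0.01 µM and vehicle libraries formed separate levels. These genes were named because the hormone term called them, so the separation of the doses was largely set by that choice. The doses did not overlap in 1985 of all 16816 genes tested. Without the 0.01 µM replicate 3 the hormone terms of CDKN1A, MDM2 and TP53INP1 were 0.56, 0.45 and 0.58 (edgeR adjusted p = 0.0176, 0.02 and 0.03). Of 21 alternatives the call held in 16 for CDKN1A, 15 for MDM2 and 14 for TP53INP1. The mean log2 CPM over the 25 genes was 3.77 to 3.88 in the 1 µM libraries, 3.46 to 3.51 in the 0.01 µM libraries, 3.28 to 3.31 in the 1 µM vehicle and 3.13 to 3.35 in the 0.01 µM vehicle.

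Listed induced targets of the receptor were called against vehicle more often than they were called between the doses. The list was chosen with earlier results of these data known, so calls of its members, NID2 and ABCA8 among them, are no independent support. Of 41 such genes tested, 26 were higher and 2 lower at 1 µM against vehicle (22.6% of all genes tested were called there), and 19 were higher and 1 lower at 0.01 µM (14% of all genes). NID2 alone was called in the net effect (0.0476% of all genes), and NID2, ABCA8 and MT2A in the hormone term (0.387%). The median net effect of the 41 was 0.26, with 32 above 0, and 0.23 with 33 above 0 without the 0.01 µM replicate 3. Their mean log2 CPM was 4.17 to 4.24 at 1 µM, 3.85 to 3.96 at 0.01 µM and 2.90 to 3.04 over the 6 vehicle libraries, so the doses did not overlap in it. MT2A, a metallothionein whose reads may be shared with near-identical copies, was at 285, 271 and 283 CPM at 1 µM, at 229, 228 and 230 CPM at 0.01 µM and between 140.3 and 154.8 CPM in the vehicles (hormone term 0.29, SE 0.06; edgeR adjusted p = 0.0174; 0.29 with adjusted p = 0.036 without the 0.01 µM replicate 3).

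TSC22D3, which encodes the anti-inflammatory protein GILZ, had the largest difference among the targets that are named in any case, and it did not pass the threshold. It was at 48.6, 56.7 and 52.6 CPM at 1 µM, at 29.2, 33.6 and 35.8 CPM at 0.01 µM and between 2.63 and 4.45 CPM in the vehicles. The doses did not overlap, as in 1985 of all 16816 genes tested. The net effect of TSC22D3 was 0.94 (95% interval 0.24 to 1.65; edgeR adjusted p = 0.615), which admits differences from small to over 3-fold. FKBP5, a cochaperone of the receptor, was at 101, 77.0 and 78.1 CPM at 1 µM and at 78.5, 75.8 and 80.5 CPM at 0.01 µM. Its doses overlapped, with a net effect of 0.21 (-0.16 to 0.58; edgeR adjusted p = 0.92). PER1, a clock repressor, and KLF9, a zinc finger repressor, also overlapped between the doses. PER1 was at 32.8, 34.0 and 41.9 CPM at 1 µM and at 23.8, 27.1 and 42.7 CPM at 0.01 µM. The overlap of PER1 came from the last value, the 0.01 µM replicate 3. PER1 and KLF9 had net effects of 0.35 (-0.27 to 0.96, edgeR adjusted p = 0.924) and 0.33 (-0.15 to 0.81, adjusted p = 0.895). DUSP1, a phosphatase of MAP kinases, had 0.51 (-0.46 to 1.49; edgeR adjusted p = 0.927). The intervals of FKBP5, PER1, KLF9 and DUSP1 include 0 and also differences above 1.4-fold. Without the 0.01 µM replicate 3 the net effects were 1.01 for TSC22D3, 0.23 for FKBP5, 0.64 for PER1, 0.29 for KLF9 and 0.67 for DUSP1, none past the threshold.

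NR3C1, the gene of the receptor itself, was at 54.8, 50.4 and 54.0 CPM at 1 µM, at 63.4, 61.3 and 41.7 CPM at 0.01 µM and between 71.0 and 79.3 CPM in the vehicles. It was lower than vehicle at both doses, by -0.49 and -0.46 on the log2 scale (edgeR adjusted p = 2.62e-05 and 0.000145). The net effect of NR3C1 was -0.03 (-0.28 to 0.21; edgeR adjusted p = 0.982), and its sign changed under 5 of the alternatives; without the 0.01 µM replicate 3 it was -0.20 (adjusted p = 0.55). ZBTB16, another target named in any case, was not among the genes tested.

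In the other pathways few members or none separated the doses. Over all genes tested, 0.0476% were called in the net effect and 0.387% in the hormone term. At these shares a list of this size would hold few calls or none, so a list without calls says nothing particular about its pathway. Of 35 extracellular matrix genes tested, NID2 was higher and HAS2 and THBS2 lower in the net effect, and LAMB1, a laminin chain chosen here after its value was seen, was lower in the hormone term (-0.30, edgeR adjusted p = 0.0325); the median net effect was 0.05, and 0.10 without the 0.01 µM replicate 3. PAPPA was called in the net effect among 15 genes of the insulin-like growth factor axis, and PAPPA and IGFBP5 in the hormone term, both lower. The hormone term called INHBA among 29 genes of TGF-beta and activin signalling, CRYAB among 17 heat shock proteins and MT2A among 4 metallothioneins. No gene of either term was called among 21 cytokines and NF-kB targets that glucocorticoids repress, 22 interferon-stimulated genes, 30 genes of S phase, 30 of mitosis, 24 of cholesterol synthesis or 21 clock genes.

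Immediate early genes, which stimuli induce within minutes, had the largest median net effect of the lists with at least 10 members tested when all libraries were used, 0.52 over 31 genes, with 28 above 0 and 0 called (0.0476% of all genes). Without the 0.01 µM replicate 3 it was 0.74 over the 31 genes, with 30 above 0. The 13 mitochondrially encoded genes of the respiratory chain had a median of -0.24 with that library and 0.94 without it, and none was called. At 1 µM against vehicle 12 of the 31 immediate early genes were higher and 1 lower, where 22.6% of all genes were called (1739 higher and 2065 lower). At 0.01 µM 2 of them were higher and 6 lower, where 14% of all genes were called (1034 and 1319). FOSB had a net effect of 1.38 (-0.25 to 3.00; edgeR adjusted p = 0.844) and JUNB of 1.00 (-0.02 to 2.01; adjusted p = 0.771); both were chosen here as familiar members after their values were seen. Single libraries moved with this list. The mean log2 CPM over the 31 genes was 3.59, 3.77 and 3.85 at 1 µM and 2.89, 2.79 and 3.60 in its vehicle. It was 3.17, 3.07 and 3.73 at 0.01 µM and 3.06, 3.14 and 3.77 in its vehicle, where the last value in each vehicle group and in the 0.01 µM group stood above the others. DUSP1 showed the same libraries high, with 71.1, 83.2 and 189 CPM and 77.3, 89.7 and 185 CPM in the vehicles. The part of these libraries in the median was not tested.

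To see whether the low dose gave a smaller response more widely, responsive genes were chosen in libraries that do not enter the comparison, those of hydrocortisone 10 µM and its vehicle (2199 genes called, 13.1%). Over the 938 genes that were higher with hydrocortisone, the median change was 0.52 at 1 µM and 0.39 at 0.01 µM, and over the 1261 that were lower it was -0.47 and -0.35. The low dose thus gave 75.6% and 73.7% of the median change of the high dose. The median net effect was 0.12 in the first set, with 72.3% above 0, and -0.13 in the second, with 23% above 0, beside 48.9% over all genes tested. The vehicle term had a median of 0.00 in both sets. All 8 genes of the net effect fell into these sets, the 3 that rose among the 938 and the 5 that fell among the 1261. Of the 65 genes of the hormone term, 59 fell into them.

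The genes with the largest hydrocortisone responses had the largest dose effects. Among 78 genes higher by more than 1 on the log2 scale with hydrocortisone the median net effect of dexamethasone dose was 0.37, among 303 genes between 0.5 and 1 it was 0.15, and among 424 genes below 0.5 it was 0.06. On the lower side the medians were -0.34 over 143 genes, -0.16 over 372 and -0.10 over 659. These size classes, like the values by library, use genes whose log2 CPM averaged 1 or more. The low dose kept between 69.4 and 81% of the median change of the high dose in the 6 classes. These medians describe the sets and carry no test.

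**Figure D3:**
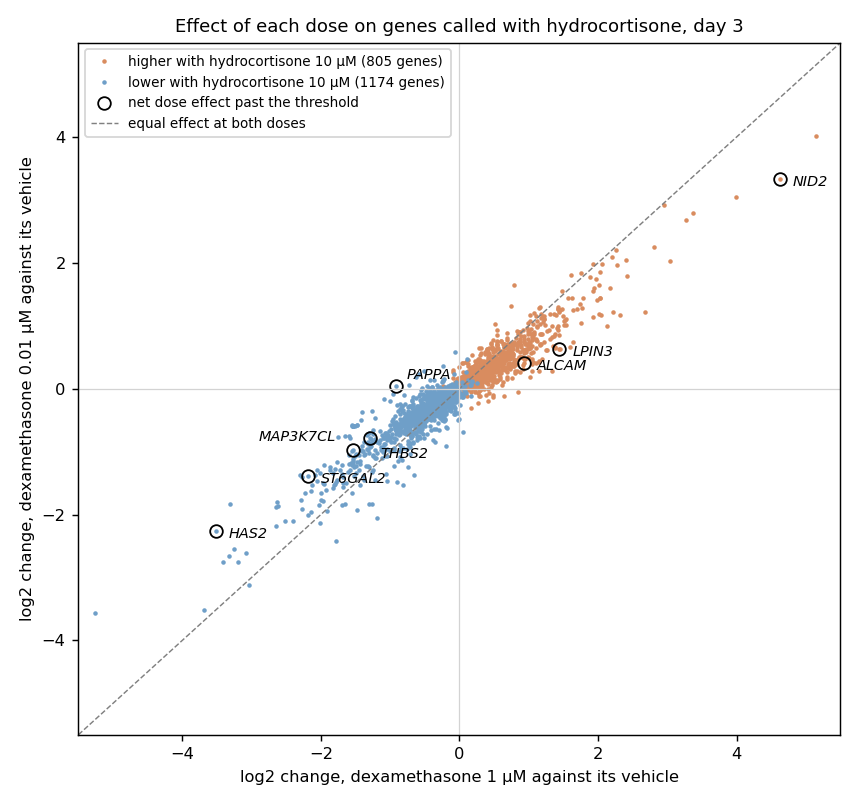
Log2 change against vehicle at 0.01 µM (vertical) and 1 µM (horizontal) for genes called with hydrocortisone 10 µM, 805 higher and 1174 lower, with the 8 genes of the net dose effect circled. Most points lie along the dashed line of equal effect or on the side of a larger change at 1 µM, and PAPPA lies near 0 at the low dose.

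The same was seen library by library. The median, over 805 genes higher with hydrocortisone, of the log2 CPM minus the mean of the dose's own vehicle was 0.45, 0.46 and 0.47 in the 1 µM libraries and 0.40, 0.39 and 0.32 in the 0.01 µM libraries. Over 1174 genes lower with hydrocortisone it was -0.44, -0.47 and -0.47 at 1 µM and -0.35, -0.35 and -0.32 at 0.01 µM. The doses did not overlap in either set, and the 0.01 µM replicate 3 had the smallest response in both. Without it the median net effects were 0.09 and -0.11, in place of 0.12 and -0.13, with the same signs.

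**Figure D4:**
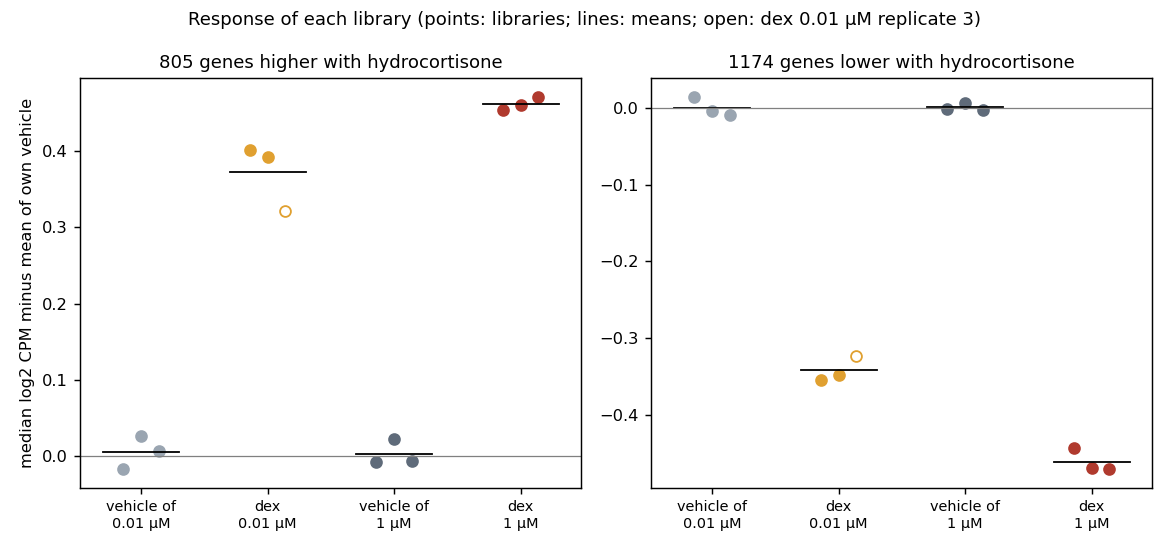
Response of each of the 12 libraries, as the median log2 CPM minus the mean of its own vehicle over 805 genes higher (left) and 1174 genes lower (right) with hydrocortisone 10 µM. Points are libraries, lines are means, and the open point is dexamethasone 0.01 µM replicate 3, which has the smallest response of the hormone libraries.

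The 8 genes also responded to the other hormone and its dose. All 8 were called with hydrocortisone 10 µM against its vehicle, in the direction of the dexamethasone dose effect, for example NID2 at 3.14 (SE 0.15), HAS2 at -2.38 (SE 0.14) and PAPPA at -0.92 (SE 0.13). All 8 were called in the net dose effect of hydrocortisone, 10 against 0.01 µM, in which 688 genes were called (4.09%). That contrast spans another ratio of doses, and no gene was called at hydrocortisone 0.01 µM alone (0 genes in edgeR, 398 at an unadjusted p under 0.05), so its values are set beside those of dexamethasone without a comparison. PAPPA had -1.003, ST6GAL2 -1.45, MAP3K7CL -0.98, THBS2 -0.87, ALCAM 0.81, LPIN3 0.71, NID2 3.20 and HAS2 -2.27.

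After 3 days without hormone, the flasks that had received 1 µM differed from those that had received 0.01 µM in 528 genes (3.14%; 232 higher and 296 lower), beside 65 on day 3. The hormone libraries held at least 6205480 non-ribosomal counts on day 6 and as few as 1083395 on day 3. Whether depth had a part in these numbers of genes was not tested. The day 6 vehicle groups had 1 library each, so the hormone libraries are compared directly and the differences hold no vehicle term. Of the 65 genes, 45 were called on day 6 and 63 had the same sign. Of the 8 genes, 6 were called on day 6, among them NID2 (2.09, SE 0.14) and HAS2 (-1.37, SE 0.13), and PAPPA (-0.02, SE 0.13) and ALCAM (0.15, SE 0.07) were not.

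The change between the days was tested in the same fit and called for 68 genes (0.404%). Of the 65 genes it was called for 5, PAPPA, ABCA8, KIT, RGMB and NPPB, of which the last 3 were chosen here for that call. PAPPA lost its difference, and KIT, a receptor tyrosine kinase, went from -0.57 to 0.08. ABCA8 went from 0.59 to 1.80, NPPB, a natriuretic peptide, from -0.53 to -1.30 and RGMB, a coreceptor of bone morphogenetic proteins, from -0.37 to -1.03.

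**Figure D5:**
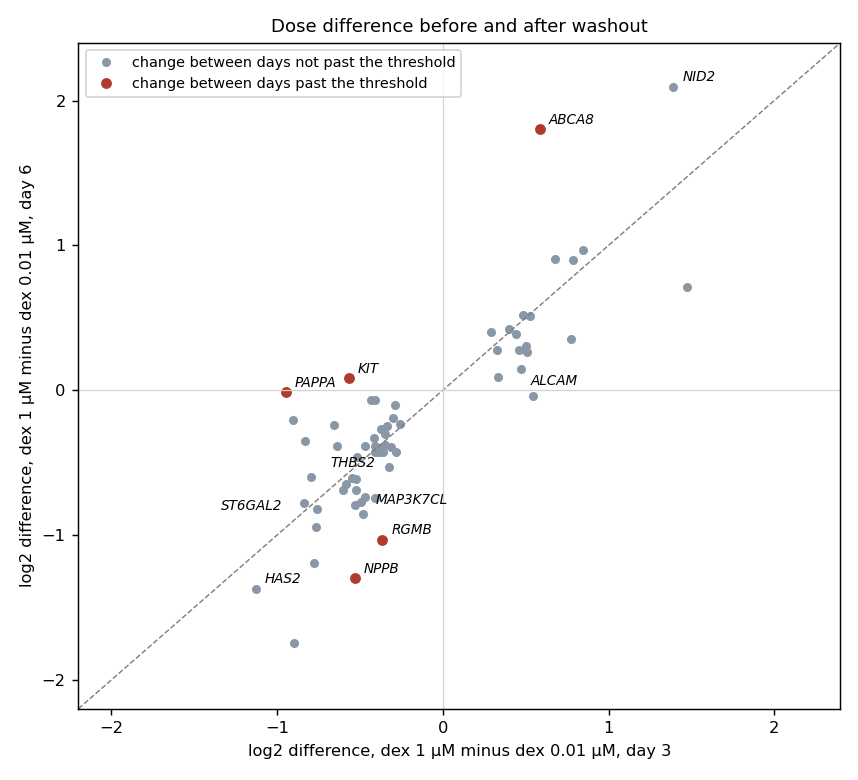
Log2 difference between dexamethasone 1 µM and 0.01 µM on day 3 (horizontal) and on day 6 after washout (vertical) for the 65 genes called on day 3. Red points are the 5 genes whose difference changed between the days, and the dashed line marks equal differences; NID2, HAS2 and ABCA8 lie beyond that line on day 6, PAPPA and KIT near 0.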

How the data were processed

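The authors deposited 1 table of whole read counts, a row per Ensembl gene, not normalised, as its values show. The labels' protocols describe a stranded total RNA kit. STAR, featureCounts, Subread, FastQC and GRCh38 are listed in the submitters' processing notes; versions and strand setting: not given in the sources used here. Of 20052 genes, 19978 took symbols from a name table and 70 from GENCODE v29, and 4 had none. Libraries were grouped by treatment label.

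All 43 libraries entered 1 fit with a coefficient for each of 17 groups (26 residual degrees of freedom), with TMM scaling, filterByExpr (minimum count 10, minimum total 15) and edgeR 4.0.16 (R 4.3.3; robust quasi-likelihood test, without the legacy option), and Benjamini-Hochberg adjustment over 16816 genes at 0.05. Intervals are 95%. The alternatives were DESeq2 1.42.0, RLE factors, other count filters, the 12 libraries alone, ribosomal genes removed, a replicate term and leaving out each library; leaving out libraries above 75% ribosomal counts and limma 3.58.1 with quality weights were added after seeing the data. The fit was also run on simulated data with a single dispersion for all genes and effects larger than most called here. That run does not show how effects of the called sizes are recovered. Differences between replicates exceeded sampling noise in every pair of the 12 libraries (ratio of observed to counting variance 1.52 to 3.31).

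Named genes are all 8 of the net effect; of the hormone term, the 8 largest in each direction whose log2 CPM averaged 1 or more and whose libraries did not overlap; up to 2 members per list (26 lists) with the smallest p in either term among those called; and TSC22D3, FKBP5, PER1, KLF9, ZBTB16, DUSP1 and NR3C1. The comparison, the rule and the lists were chosen with earlier results of these data known. The summed level of the microglia markers is not reported here.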

Additional observations from a re-analysis of the deposited data

Results flagged for a closer look

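The dose difference of the dexamethasone libraries changed between day 3 and day 6 for 68 genes, by an edgeR test of that change (adjusted p below 0.05). Of the 68, 63 were called on day 6 and 5 on day 3, where 3.14% and 0.387% of all genes tested were called. The test of the change holds the differences of both days, so calls on a day follow in part from that choice. PAPPA, ABCA8 and PER1, of the genes the rule names, are among the 68. The day 3 difference minus the day 6 difference of PAPPA was -0.93 on the log2 scale (SE 0.18; edgeR adjusted p = 0.00542), from -0.95 on day 3 to -0.02 on day 6. That of ABCA8 was -1.22 (SE 0.16; edgeR adjusted p = 1.9e-05), from 0.59 to 1.80. That of PER1 was -1.29 (SE 0.30; edgeR adjusted p = 0.0474), from 0.22 (95% interval -0.21 to 0.65) on day 3 to 1.51 (1.07 to 1.95) on day 6, when the 1 µM flasks were the higher ones. Day 6 values hold no vehicle term.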

How the results depend on the processing

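The net dose effect was called for 8 genes and the hormone term for 65. With DESeq2 the net effect was called for 14 genes, 7 of them among the 8 (6521 genes had no adjusted p). It was called for 1 (NID2) with only the 12 libraries, where the hormone term had 11 genes, for 4 without ribosomal RNA genes, and for 14 by limma with quality weights, where the hormone term had 225. Leaving out each library in turn gave 4 to 18 genes for the net effect (18 without the 0.01 µM replicate 3), 18 to 81 for the hormone term (18 without the 1 µM replicate 3, 30 without its replicate 4) and -0.1376 to -0.109 for the median net effect of genes lower with hydrocortisone. Without the libraries above 75% ribosomal the net effect had 6 genes, of which PAPPA and NID2 were among the 8, the hormone term 38 and 0.01 µM against vehicle 1522 in place of 2353. The cause of these changes was not tested. Settings with fewer libraries also have fewer residual degrees of freedom, and the part of that was not tested either. The net effect of NR3C1 changed sign, to between 0.0021 and 0.0725 when replicates 1 or 2 of 0.01 µM, replicate 3 of 1 µM or replicate 3 of the 0.01 µM vehicle were left out (-0.2018 to 0.0725 over single libraries left out, -0.23 to 0.0725 over all alternatives). No sign changed for the other genes that the naming rule takes; LAMB1, FOSB, JUNB, KIT, RGMB and NPPB, named outside it, were not run.

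With a replicate block (the number in the title as a term) the net effect had 8 genes, 7 of them the same, with PTK2B in place of LPIN3, the hormone term 64, and NR3C1 was at 0.0122. The numbers did not pair the samples: 13 same-numbered pairs correlated at -0.15 to 0.37, 5 of them above 0.1, and 4 of 12 libraries correlated best with their own number. The libraries with few non-ribosomal counts limit low genes, such as HAS2 with 10 counts in the 0.01 µM replicate 3.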
